A study of Homo sapiens with 9 samples.

Results

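The genes described here are 10 members of the insulin and FOXO feedback circuit (INSR, IGF1R, IRS1, IRS2, CCNG2, SESN1, SESN3, KLHL24, PIK3IP1 and TXNIP), of 58735 genes in the deposited tables. They were picked by name, with results of these same libraries already known, so their differences between groups are given as a description and support no further statement. The study sequenced messenger RNA from PaTu 8988t, an established human pancreatic tumour cell line, in 9 libraries. Per the labels, the cells met 1 of 3 extracellular matrices, with 3 libraries each. The first was a control matrix, called control here. The second held wild-type CPXM2, a secreted member of the carboxypeptidase family, and the third held the mutant CPXM2 R213A; the labels add "OE" to both names without explaining it. All cells were kept in DMEM with 10% fetal bovine serum and penicillin/streptomycin. The series title names the question as the effect of collagen aligned by CPXM2 on expression and signalling. The sources used here do not give the time on the matrix, the cells that laid it down, or whether the 3 libraries of a group came from separate cultures. Any p-value below therefore measures the spread among libraries only, and that spread may be technical.

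Insulin and insulin-like growth factors bind the receptor tyrosine kinases INSR and IGF1R, which phosphorylate the adaptors IRS1 and IRS2 and through them activate PI3K and AKT. AKT phosphorylates FOXO transcription factors and keeps them out of the nucleus, so FOXO target genes are read when the pathway is quiet. Several of those targets, IRS2 and INSR among them, code for parts of the pathway itself and close a feedback loop. TXNIP, an arrestin-fold protein that binds thioredoxin and restrains glucose uptake, answers both to FOXO and to the glucose-sensing factor MLXIP with its partner MLX, which bind E-box sequences.

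RefSeq promoter windows of 300 bases, 250 before to 50 after a transcript start (build GRCh38.p14), were found for 10 of 10 genes, 14 windows in all. They were searched on both strands for 3 motifs. The FOXO motif GTAAACA, read as TGTTTAC on the opposite strand, occurs in 3.42% of all 35116 windows in the table, the insulin response motif CAAAACAA, read as TTGTTTTG on the opposite strand, in 1.68%, and the E-box CACGTG, which reads the same on both strands, in 7.26%. A match to any of the 3 motifs, in any window of the gene, was found for 5 of the 10 genes. The shares above are per motif and per window, so they are not a like share for this count. The 250 bases before the start are shown for TXNIP, CCNG2, KLHL24 and IRS2, the members with the highest mean levels, 5′ to 3′ on the gene's own strand, with matches in capitals. TXNIP (chr1:145996580-145996829, minus strand) holds the FOXO motif 124 bases before the start.
TXNIP: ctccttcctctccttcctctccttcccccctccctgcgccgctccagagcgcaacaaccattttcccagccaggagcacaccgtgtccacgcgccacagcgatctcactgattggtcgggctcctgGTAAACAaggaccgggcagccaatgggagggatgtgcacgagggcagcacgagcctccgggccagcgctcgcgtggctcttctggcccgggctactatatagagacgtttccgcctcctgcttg
IRS2 (chr13:109786584-109786833, minus strand) holds the insulin response motif in its reverse complement, 41 bases before the start.
IRS2: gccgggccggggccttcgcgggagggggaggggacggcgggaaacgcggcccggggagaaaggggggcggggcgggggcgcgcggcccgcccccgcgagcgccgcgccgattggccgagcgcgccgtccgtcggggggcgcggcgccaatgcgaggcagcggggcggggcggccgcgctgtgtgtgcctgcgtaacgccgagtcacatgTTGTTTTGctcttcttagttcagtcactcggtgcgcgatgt
CCNG2 (chr4:77156957-77157206, plus strand) holds an E-box 30 bases before the start.
CCNG2: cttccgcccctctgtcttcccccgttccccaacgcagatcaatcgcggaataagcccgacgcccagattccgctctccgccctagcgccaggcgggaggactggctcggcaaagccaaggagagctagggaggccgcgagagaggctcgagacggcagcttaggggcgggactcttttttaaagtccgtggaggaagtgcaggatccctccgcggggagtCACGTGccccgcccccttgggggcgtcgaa
KLHL24 (chr3:183635373-183635622, plus strand) holds none of the 3 motifs in its window and so shows no capitals.
KLHL24: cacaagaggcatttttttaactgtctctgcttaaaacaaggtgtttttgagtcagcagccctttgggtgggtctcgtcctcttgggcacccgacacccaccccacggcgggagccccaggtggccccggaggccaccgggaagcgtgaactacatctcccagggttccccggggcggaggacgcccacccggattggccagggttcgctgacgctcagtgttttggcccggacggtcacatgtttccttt
After the start, IRS1 has an E-box at base 35 and a PIK3IP1 window has the FOXO motif in its reverse complement at base 16. These are matches of exact letters, not measured binding sites. Variant forms of the motifs, E-boxes included, were not searched, so a window without a match may still hold one.

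The authors deposited expression as FPKM, reads scaled to gene length and library depth, in 2 separate tables. One, called the 4-library table, covers R213A 1 and 3 beside the first control and the first wild-type library. The other, the 5-library table, covers the remaining control and wild-type libraries and R213A 2. What separates the tables is not given, and they may have been scaled apart, so differences between groups were formed inside each table. Recovered reads per library ranged from 15951927 to 18312806. The line's keratins KRT8 and KRT18 had means of 153 and 348 FPKM and vimentin (VIM) 138. Other epithelial markers were mixed: EPCAM averaged 4.57 FPKM and MUC1 1.14, KRT7 was at 0.229, and CDH1 and KRT19 were near 0, at 0.0736 and 0.0217 FPKM. None of the 10 fibroblast, 6 immune, 5 endothelial and 4 fat cell markers averaged 1 FPKM. The 4 libraries of the 4-library table differed in how long genes read against short ones. The median log2 level of genes of at least 3625 bases (the length of the shortest member tested) minus that of shorter genes was -0.35 in control 1, -0.77 in wild type 1, -1.04 in R213A 1 and -0.70 in R213A 3, against -0.03 to -0.11 in the 5-library table. All 8 members that entered the fit belong to the longer class by the choice of the cut, as do 7163 of all 11193 genes tested. TXNIP sets the cut, and the other members tested are 5121 to 13941 bases long. The part of this shift in the member differences inside the 4-library table was not tested. The length correction given below was made in the fit over both tables.

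Per gene length, mean levels over the 9 libraries ranked TXNIP (30.5 FPKM), CCNG2 (12.7), KLHL24 (6.68), IRS2 (5.34), IGF1R (2.80), INSR (2.12), SESN1 (1.70), IRS1 (1.25), SESN3 (0.821) and PIK3IP1 (0.116). TXNIP spanned 1.20 to 64.2 FPKM and CCNG2 0.878 to 23.7 across libraries, so the order of the 4 most abundant members is not fixed from library to library. INSR and IGF1R, next to each other in the order, overlap in their ranges. Of the 10 members, 8 reached the mean of 1 FPKM needed to enter the fit across genes, and SESN3 and PIK3IP1 are given by their levels alone. Transcripts annotated as overlapping a member lay at or below 0.262 FPKM in every library. That highest level was of PIK3IP1-DT, on the strand opposite to PIK3IP1, which itself reached only 0.336 FPKM.

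**Figure D1:**
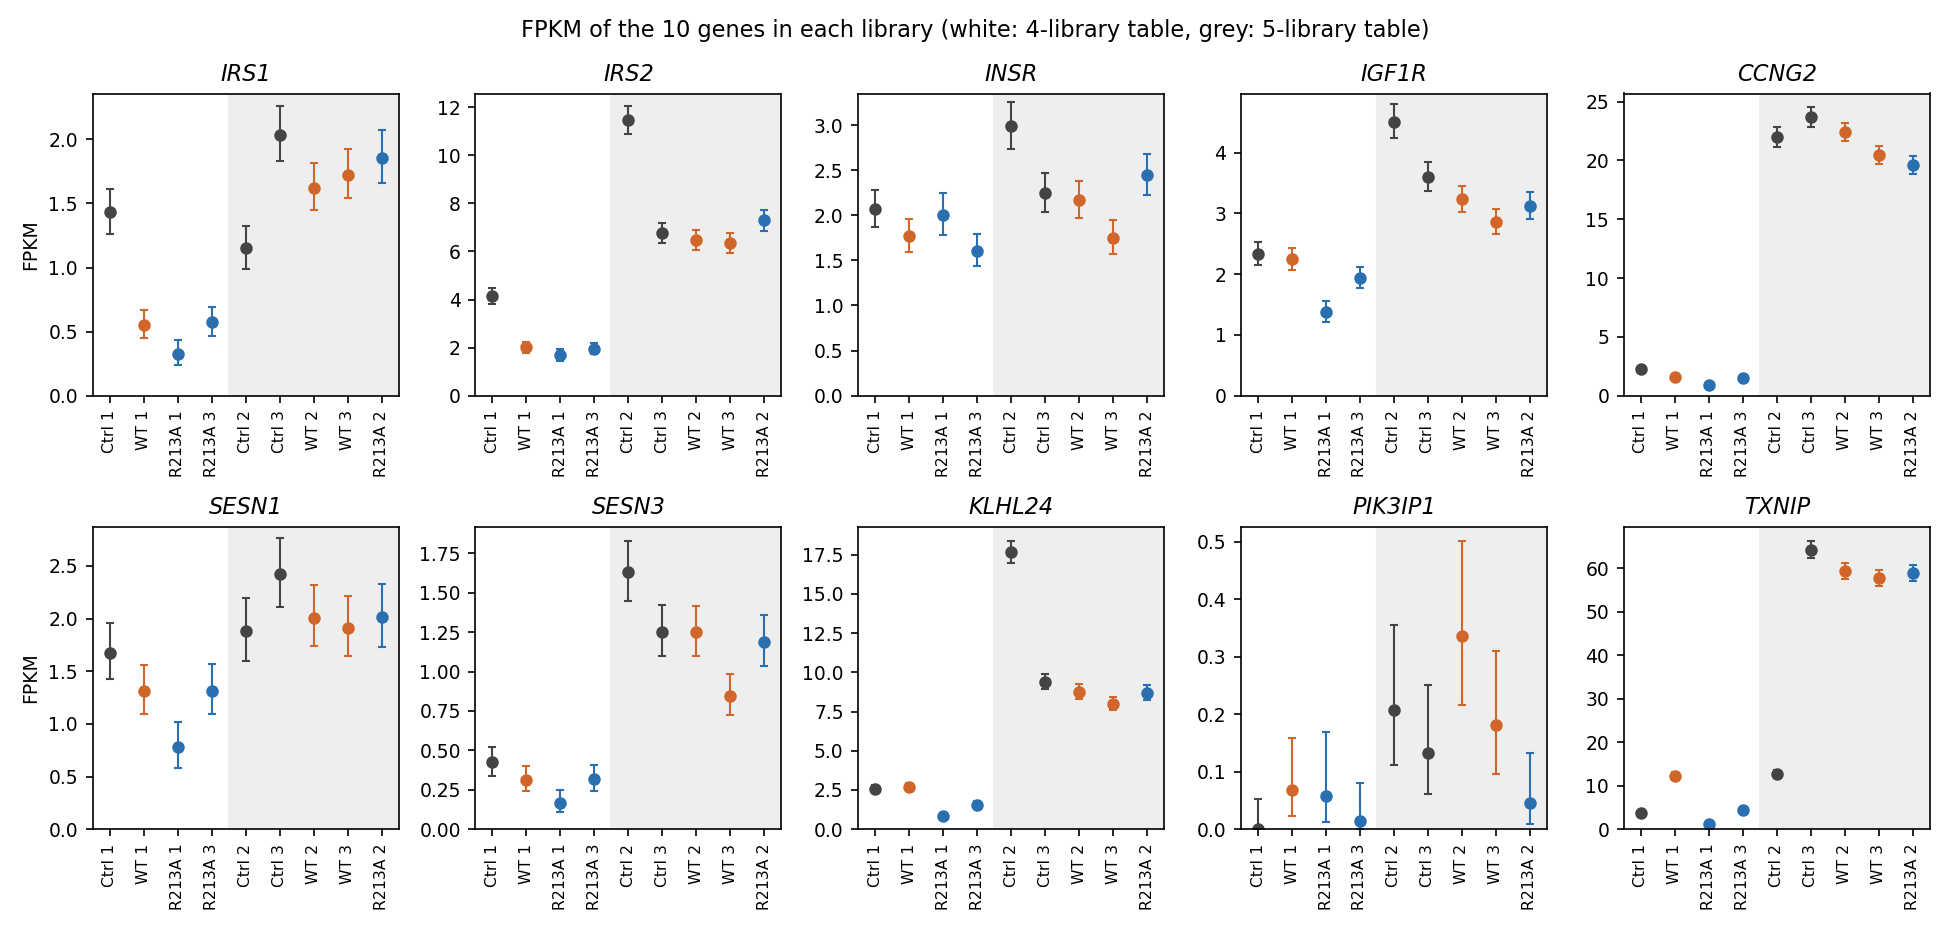
Level of each of the 10 genes (FPKM, linear axis from 0) in each of the 9 libraries, with bars for the exact Poisson 95% interval of the read count (counting error only) and the 5 libraries of the 5-library table on grey. CCNG2, KLHL24 and TXNIP stand far lower in the 4-library table, control 2 departs from its table for TXNIP, KLHL24 and IRS2, and INSR is the flattest of the 8 genes tested.

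INSR, the insulin receptor (ENSG00000171105, chr19:7112255-7294034, hg38, minus strand), varied least. It stood at 2.07, 2.99 and 2.24 FPKM in control 1, 2 and 3, at 1.77, 2.17 and 1.75 in wild type 1, 2 and 3, and at 2.00, 2.45 and 1.61 in R213A 1, 2 and 3. The group means were 2.44 ± 0.488 (SD, n = 3), 1.90 ± 0.236 and 2.02 ± 0.420 FPKM, and the 3 groups overlap. IGF1R, the receptor for insulin-like growth factors (ENSG00000140443, chr15:98648539-98964530, plus strand), read 2.33, 4.51 and 3.61 FPKM in the controls, 2.24, 3.23 and 2.86 with wild-type CPXM2, and 1.37, 3.13 and 1.94 with R213A. Its highest library was control 2 and its lowest R213A 1, and the groups again overlap.

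IRS1, an adaptor tied to growth signalling (ENSG00000169047, chr2:226731317-226799759, minus strand), read 1.43, 1.15 and 2.04 FPKM in the controls, 0.551, 1.62 and 1.72 with wild-type CPXM2, and 0.326, 1.86 and 0.574 with R213A. The low libraries were wild type 1, R213A 1 and R213A 3, all in the 4-library table, where control 1 stood 4.39-fold above R213A 1. IRS2, the adaptor whose gene is a classical FOXO target (ENSG00000185950, chr13:109752698-109786568, minus strand), read 4.13, 11.5 and 6.76 FPKM in the controls. It read 2.01, 6.46 and 6.34 FPKM with wild-type CPXM2 and 1.69, 7.29 and 1.95 with R213A. Inside each table a control library was the highest for IRS2, control 1 in one and control 2 in the other. Control 3, at 6.76 FPKM, lay above both wild-type libraries beside it and below R213A 2.

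CCNG2, an unconventional cyclin that restrains the cell cycle (ENSG00000138764, chr4:77157151-77433388, plus strand), read 2.26, 22.0 and 23.7 FPKM in the controls, 1.63, 22.4 and 20.5 with wild-type CPXM2, and 0.878, 19.6 and 1.48 with R213A. Its 5 high libraries are the 5-library table, whose mean was 13.9 times that of the 4-library table, while inside the 5-library table it spanned only 1.21-fold. KLHL24, a substrate adaptor of a ubiquitin ligase (ENSG00000114796, chr3:183635568-183684477, plus strand), read 2.58, 17.7 and 9.40 FPKM in the controls, 2.68, 8.77 and 8.01 with wild-type CPXM2, and 0.818, 8.68 and 1.56 with R213A. Control 2 was the highest of all, and control 1 and wild type 1 were nearly level.

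The sestrins damp mTOR signalling under stress. SESN1 (ENSG00000080546, chr6:108986437-109094819, minus strand) read 1.68, 1.88 and 2.42 FPKM in the controls, 1.31, 2.01 and 1.91 with wild-type CPXM2, and 0.777, 2.01 and 1.32 with R213A. SESN3 (ENSG00000149212, chr11:95165513-95232541, minus strand), the sestrin most often named as a FOXO target, read 0.424, 1.63 and 1.25, then 0.313, 1.25 and 0.847, then 0.167, 1.19 and 0.319 FPKM in the same order. Both were lowest in R213A 1, and neither separates the groups. PIK3IP1, a membrane protein that inhibits PI3K (ENSG00000100100, chr22:31281593-31292534, minus strand), had 0 to 24 reads per library and at most 0.336 FPKM. Control 1 had 0 reads, for which the exact Poisson 95% interval, the bar in the plot of levels by library, ends at 0.0517 FPKM. The R213A libraries had 3, 3 and 1 reads, and wild type 2 the most, at 0.336 FPKM. The exact Poisson 95% interval of wild type 2 starts at 0.216 FPKM, above the end of that of R213A 2 at 0.132. The interval of wild type 3 (13 reads, 0.0963 to 0.309 FPKM) overlaps that of R213A 2. The intervals of wild type 1 (5 reads, 0.0221 to 0.159 FPKM) and R213A 1 (3 reads, 0.0120 to 0.170) overlap over nearly their whole length. The wild-type libraries ran from 0.0680 to 0.336 FPKM and the R213A libraries from 0.0143 to 0.0581, on few reads and across tables, and the controls (0 to 0.208) overlap both. How many of all genes have ranges apart in this way was not counted.

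TXNIP (ENSG00000265972, chr1:145992435-145996600, minus strand) moved most between libraries of 1 group. It read 3.63, 12.8 and 64.2 FPKM in control 1, 2 and 3, 12.2, 59.3 and 57.7 in wild type 1, 2 and 3, and 1.20, 58.8 and 4.42 in R213A 1, 2 and 3. The 4 highest libraries, at 57.7 to 64.2 FPKM, come from all 3 groups and all lie in the 5-library table. The fifth library of that table, control 2, lies beside wild type 1 of the other table.

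Whether wild-type CPXM2 in the matrix moved these genes was asked first. No gene passed an adjusted p of 0.05 in limma with Benjamini-Hochberg adjustment (0 of 11193, 0.0%; smallest adjusted p = 0.757), and 503 had an unadjusted p under 0.05. Limma-voom on the recovered reads called 0 as well, with 423 at an unadjusted p under 0.05. None of the 8 members passed. At an unadjusted p under 0.05, which 4.49% of all genes had, 1 of 8 members lay on the lower side, IRS2 (2.24% of all genes), and 0 on the higher side (2.25%). On the log2(FPKM + 1) scale, which understates the change of low genes, IRS2 differed by -0.53 ± 0.21 (SE), KLHL24 by -0.37 ± 0.26, INSR by -0.24 ± 0.16 and IGF1R by -0.23 ± 0.17. IRS1 (-0.17 ± 0.23), CCNG2 (-0.16 ± 0.17) and SESN1 (-0.13 ± 0.17) lay closer to 0, and TXNIP differed by 1.17 ± 0.59. The difference was below 0 for 7 of 8 members, against 53.7% of all genes tested, with a median of -0.20 for the members and -0.03 for all genes.

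The tables did not give the same picture of wild type against control. The members lower in both were IRS2, INSR, IGF1R, CCNG2 and SESN1, 5 of 8 where 28.8% of all genes were, and TXNIP alone was higher in both, where 22.5% of all genes were. Inside the 4-library table IRS2 differed by -0.77. Inside the 5-library table it differed by -0.41, and by -0.07 without control 2. KLHL24 differed by 0.04, -0.57 and -0.15 in the same order, and TXNIP by 1.52, 0.99 and -0.13. In the 5-library table the direction of TXNIP therefore rested on control 2, and in the fit over both tables its difference was 0.50 without that library.

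For R213A against control, limma again called 0 of 11193 genes (0.0%; smallest adjusted p = 0.690), with 341 at an unadjusted p under 0.05, and limma-voom called 0 with 214 unadjusted. None of the 8 members passed. At an unadjusted p under 0.05, which 3.05% of all genes had, 2 of 8 members lay on the lower side, IRS2 and KLHL24 (1.77% of all genes), and 0 on the higher side (1.28%). The differences were -0.71 ± 0.28 for KLHL24, -0.55 ± 0.22 for IRS2, -0.40 ± 0.18 for CCNG2 and -0.35 ± 0.18 for IGF1R. IRS1 stood at -0.27 ± 0.24, SESN1 at -0.23 ± 0.18, INSR at -0.12 ± 0.17 and TXNIP at 0.15 ± 0.62. Here 7 of 8 members lay below 0 (51.9% of all genes), and 6 of 8 did so in both tables (27.1%), with a median of -0.31 against -0.02 for all genes. The control libraries are those of the wild-type comparison, so the shared low side of the members is not a second measurement of it.

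In the 4-library table R213A against control gave -0.86 for IRS2, -0.75 for IRS1, -0.73 for KLHL24, -0.59 for CCNG2 and -0.42 for TXNIP. In the 5-library table the same genes gave -0.25, 0.16, -0.53, -0.21 and 1.00. Without control 2 they gave 0.10, -0.09, -0.10, -0.26 and -0.12, so the direction of IRS2, IRS1 and TXNIP in that table rested on control 2. All genes of the longer class had a median of -0.20 in the 4-library table and shorter genes 0.34, and for wild type against control these medians were -0.20 and 0.21. With a smooth correction for gene length, the R213A difference in the fit over both tables was -0.42 for IRS2, -0.58 for KLHL24, -0.28 for CCNG2, -0.17 for IGF1R and 0.03 for INSR. Inside the 4-library table, all 13 of 13 transcripts of the mitochondrial genome were lower in wild type than in control (median -0.80). There 10 of 13 were lower in R213A (median -0.38). Wild type and control are 1 library each there, and 6042 and 5837 of all 11193 genes were lower in these comparisons. In the 5-library table, 5 and 6 of the 13 were lower (5854 and 5969 of all genes), with medians of 0.22 and 0.11. Without control 2 those medians were -0.20 and -0.30. None of the 13 passed the adjusted threshold in limma, and their part in the members' differences was not tested.

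**Figure D2:**
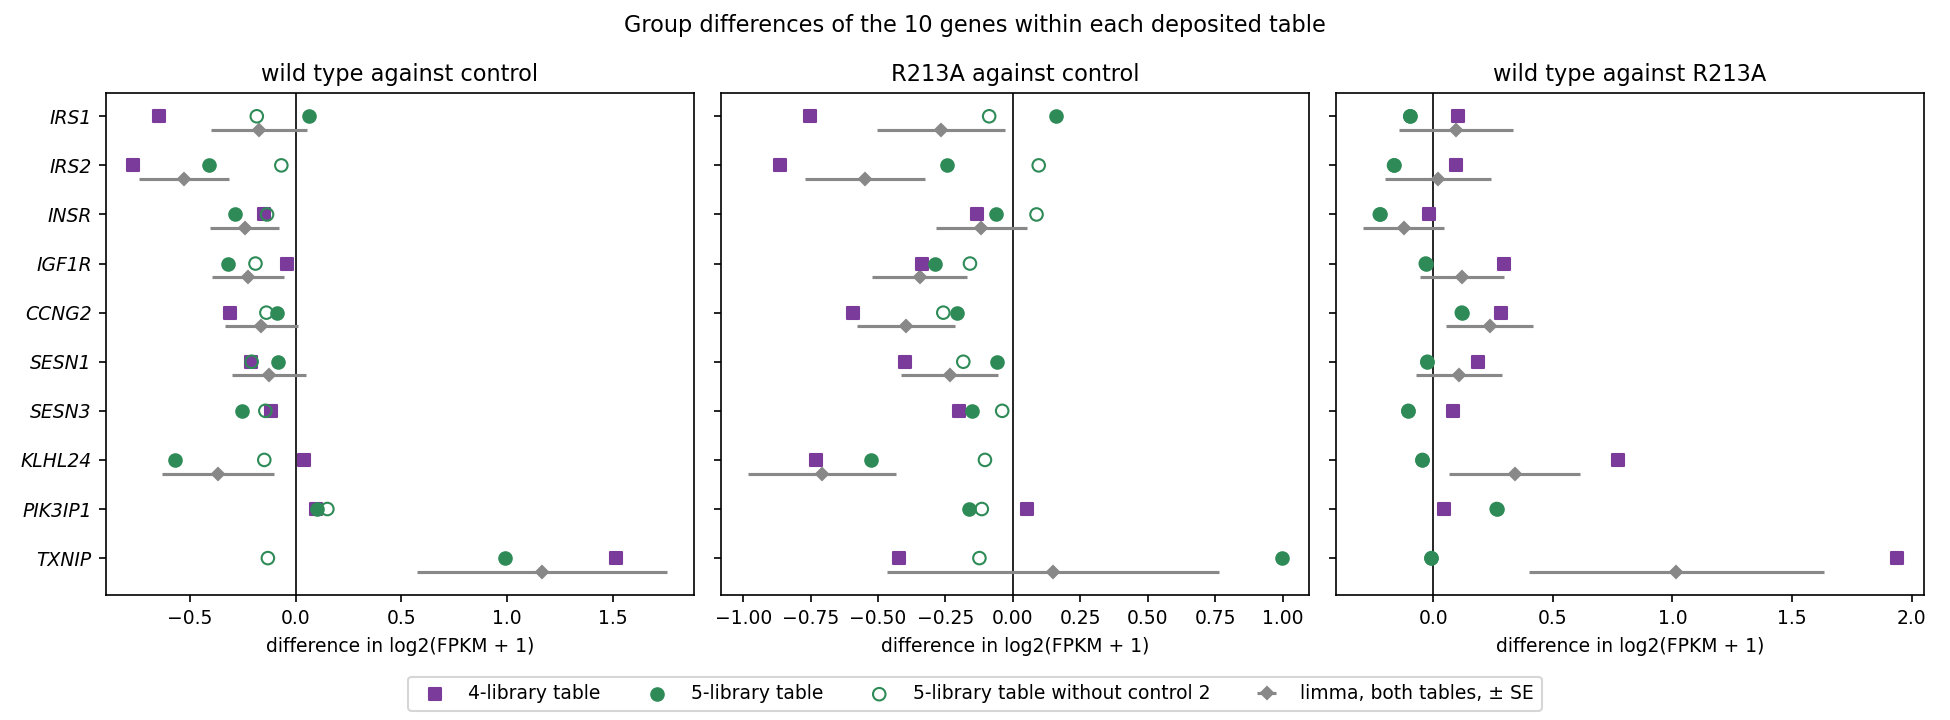
Difference in log2(FPKM + 1) between groups for each of the 10 genes, in 3 comparisons, inside the 4-library table, inside the 5-library table, inside the latter without control 2, and from limma over both tables with its SE (8 genes). Without control 2, the differences from control in the 5-library table run from -0.26 to 0.15, while the 4-library table holds differences of -0.86 (IRS2, R213A against control) and 1.94 (TXNIP, wild type against R213A).

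Wild type against R213A, the comparison that sets the protein against its mutant, gave 0 calls in limma (0.0%; smallest adjusted p = 0.996), with 117 genes at an unadjusted p under 0.05, and 0 with 101 in limma-voom. None of the 8 members had an unadjusted p under 0.05, which 1.05% of all genes had (0.393% on the higher and 0.652% on the lower side). In the fit over both tables the difference was below 0 for 1 of 8 members, against 51.5% of all genes. Inside the 4-library table it was below 0 for 1 of 8 (median 0.24), where 5904 of all 11193 genes were. Inside the 5-library table it was below 0 for 7 of 8 (median -0.04), where 5251 of all genes were. The tables thus gave opposite directions for most members. TXNIP differed by 1.02 ± 0.62 in the fit over both tables, and by 1.94 inside the 4-library table and -0.01 inside the other. The other members lay between -0.12 ± 0.17 (INSR) and 0.34 ± 0.28 (KLHL24), and IRS2 at 0.02 ± 0.22. CCNG2, at 0.24 ± 0.18, was the only member higher in both tables (22.9% of all genes), and INSR the only one lower in both (22.7%).

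Control 2 stood apart from the other 4 libraries of its table, which hold the 3 groups. KLHL24 was at 17.7 FPKM in control 2 against 8.71 ± 0.569 (SD, n = 4) in the others, 2.03-fold higher. IRS2 was at 11.5 against 6.71 ± 0.422 FPKM, 1.71-fold higher, and IGF1R, INSR and SESN3 were 1.41-, 1.39- and 1.44-fold higher. TXNIP went the other way, 4.71-fold lower at 12.8 FPKM against 60.0 ± 2.86, although the other 4 libraries spanned only 1.11-fold. IRS1 was 1.57-fold lower, and CCNG2 was level, at 1.02 times the mean of the others. So the 2 IRS adaptors stood on opposite sides in this library.

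Over all genes, control 2 was the highest of its table for 43.7% and the lowest for 37.1%, so being extreme there is common; 4 of 8 members were highest and 3 of 8 lowest. Passing 1.5-fold was less common. IRS2 and KLHL24 were 1.5-fold above the mean of the others on the log2(FPKM + 1) scale (2 of 8, where 7.21% of all genes were), and TXNIP was below it (1 of 8, 7.56%); IRS1, 1.57-fold lower in FPKM, was not, since the added 1 shrinks the ratio of a low gene. Relatives of TXNIP split in the same library. ARRDC4, its closest relative, read 1.66 FPKM against 3.20 to 3.69 in the other 4, and TXNRD1, the reductase of thioredoxin, 54.2 against 102 to 105. ARRDC3, another arrestin-fold relative, read 30.6 against 11.4 to 13.6 FPKM. The mitochondrial transcripts had a median log2 difference of -0.71 in control 2 against the others, with 7 of 13 at least 1.5-fold lower (7.56% of all genes). Control 2 was the lowest of its table for 9 of 13 (37.1% of all genes). MT-ND4 and MT-CO1 went slightly the other way, at 1.05 and 1.03 times the mean of the others. The link of the mitochondrial transcripts to TXNIP was not tested.

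**Figure D3:**
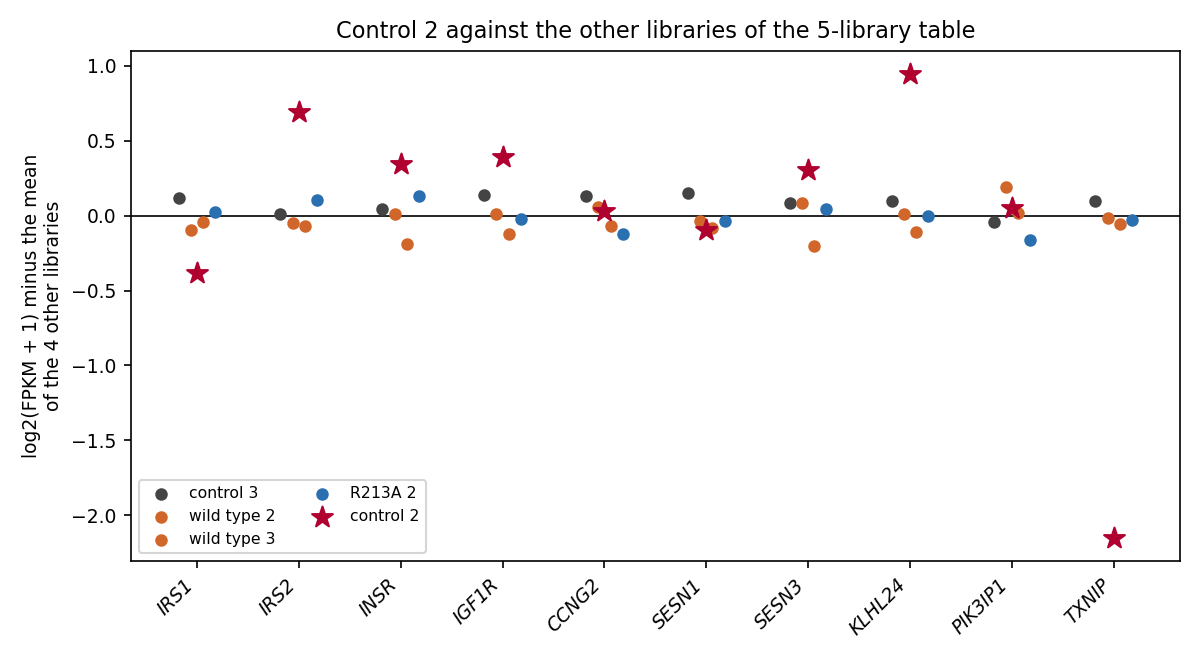
For each of the 10 genes, log2(FPKM + 1) minus the mean of the other 4 libraries of the 5-library table, with control 2 as a star and the other 4 as points coloured by group. Control 2 sits at -2.15 for TXNIP, 0.94 for KLHL24 and 0.69 for IRS2, while the other 4 libraries lie close to 0 for every gene.

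The 4-library table had its own order. Control 1 was the highest library for 6 of 8 members (IRS1, IRS2, INSR, IGF1R, CCNG2 and SESN1; 39.0% of all genes) and the lowest for 0 of 8 (32.2%), and R213A 1 was the lowest for 7 of 8, all but INSR (33.4%). Wild type 1 was at least 1.5-fold below control 1 for IRS1 and IRS2 (22.0% of all genes), and at least 1.5-fold above it for TXNIP (18.2%). TXNIP read 3.37-fold higher in wild type 1 than in control 1, and 10.2-fold higher than in R213A 1. The mean of R213A 1 and 3 was at least 1.5-fold below control 1 for IRS1, IRS2, CCNG2 and KLHL24 (17.3%), and for none was it so far above (18.5%). The 1.5-fold limits apply on the log2(FPKM + 1) scale, and the 2 ratios printed for TXNIP are of FPKM. R213A 1, the library lowest for most members, also had the lowest level of long genes against short ones, and inside this table that shift cannot be told apart from a difference between matrices.

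Every library of the 4-library table lay below every library of the 5-library table for IRS2, IGF1R, CCNG2, SESN1, KLHL24 and TXNIP, 6 of 8 members where 30.3% of all genes did, and for none the reverse (23.7%). The ratio of table means was 13.9 for CCNG2, 9.41 for TXNIP, 5.51 for KLHL24, 4.04 for SESN3, 3.13 for IRS2 and 2.33 for IRS1, and only 1.25 for INSR. These ratios compare levels across tables that may be scaled apart, and no group difference rests on them. Both tables hold all 3 groups, so the step between tables is not a step between matrices.

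Deviations from the table mean went together for most pairs of members. Over the 9 libraries, Pearson's r of the table-centred log2(FPKM + 1) values was positive for 22 of 28 pairs, with a median of 0.48. Among the 21 pairs without TXNIP, 19 were positive with a median of 0.60, and without control 2 all 21 were positive with a median of 0.73. The closest pair was IGF1R and KLHL24 (0.97), followed by CCNG2 and SESN1 (0.93), and the most opposed was INSR and TXNIP (-0.66). The points share libraries, and with them depth and the shift with gene length, so these values describe the libraries only. The like share of positive pairs among all genes was not counted. Among 9961 protein-coding genes, the pattern most like that of IRS2 was MARVELD2 (0.99), then UNC13B and ZNF24 (0.98 each). For TXNIP it was SLC35B3 (0.99), then GOLGA1 and P4HA1 (0.98 each). P4HA1, a subunit of the enzyme that hydroxylates collagen prolines, read 84.1 FPKM in control 2 against 113 to 115 in the rest of its table, and 16.4 to 21.4 in the 4-library table.

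The rest of the pathway was read from 7 lists, which were also written with earlier results known, and no gene of any list passed the adjusted threshold in limma in any comparison (0.0% of all genes). The ligands were all but absent: INS had 0 FPKM in every library, and IGF1 and IGF2 at most 0.00908 and 0.0160. The binding proteins that hold insulin-like growth factors were present (5 of 10 listed ligands and binding proteins entered the fit), with medians of 0.14 for wild type and 0.33 for R213A against control. IGFBP1, a classical target of FOXO in liver, read 3.13 FPKM in control 2 and 11.2 to 13.3 in the other 4, the direction of TXNIP and not of IRS2. IGFBP3 was at 30.6 FPKM in control 1 and 4.03 in wild type 1, but at 1.12 to 1.86 in the whole 5-library table.

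Of the receptor relatives, adaptors and receptor inhibitors, 9 of 13 entered the fit, with medians of -0.08 and 0.01 for the wild type and R213A comparisons. SHC1, an adaptor that leads from the receptors to RAS, read 192, 341 and 233 FPKM in the controls, 173, 224 and 224 with wild-type CPXM2, and 121, 203 and 154 with R213A. Its high library was control 2, as for IRS2. PTPN1, the phosphatase that switches off INSR, read 25.3 FPKM in control 1 and 14.0, 15.9 and 17.9 in wild type 1, R213A 1 and R213A 3, and 22.5 to 25.7 in the 5-library table.

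PI3K subunits, AKT kinases and their opposing phosphatases (12 of 15 in the fit) had medians of -0.19 and -0.24 in the comparisons with control. In each, 10 of 12 lay below 0, against 53.7% and 51.9% of all genes tested, and 0 of 12 had an unadjusted p under 0.05 in limma. Inside the 4-library table the list medians were -0.54 and -0.59, beside -0.20 in both comparisons for all genes of the longer class. PIK3CA, a catalytic subunit, read 2.74 FPKM in control 1 and 0.838 in R213A 1, against 6.21 to 8.27 in the 5-library table. PIK3CB, another, differed by -0.43 ± 0.21 (wild type) and -0.42 ± 0.22 (R213A). Without control 2, the list medians in the 5-library table were 0.0060 and -0.0039.

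The mTOR and GSK3 list (13 of 14 in the fit) had a median of 0.02 in both comparisons with control. DDIT4, an inhibitor of mTOR complex 1, read 1.48 FPKM in control 1, 135 in wild type 1, 3.15 in R213A 1 and 47.6 in R213A 3, and 59.2 to 72.8 in the 5-library table. SESN2, the relative of SESN1 and SESN3, followed that order, at 3.72, 69.9, 4.42 and 22.6 FPKM in the 4-library table and 16.9 to 22.3 in the other. Wild type 1 was thus high for SESN2 and below control 1 for both SESN1 (1.31 and 1.68 FPKM) and SESN3 (0.313 and 0.424).

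Of the FOXO factors, FOXO3 and FOXO4 entered the fit and FOXO1 did not, at a mean of 0.925 FPKM. FOXO3 read 4.49, 10.9 and 7.09 FPKM in the controls, 4.23, 7.07 and 6.39 with wild-type CPXM2, and 2.65, 7.28 and 3.86 with R213A. Control 2 was its highest library and R213A 1 its lowest, as for IGF1R and KLHL24. Of 22 other FOXO targets, 13 entered the fit, with 9 and 10 below 0 (53.7% and 51.9% of all genes) and medians of -0.09 and -0.19. RBL2, a pocket protein that holds cells out of the cycle, was the only one of 13 with an unadjusted p under 0.05 in limma (on the lower side, 2.24% and 1.77% of all genes), at -0.60 ± 0.26 for wild type (adjusted p = 0.757) and -0.75 ± 0.27 for R213A (adjusted p = 0.690). It read 5.08 FPKM in control 1 and 1.48, 0.977 and 1.80 in the rest of the 4-library table, against 5.80 to 7.80 in the other. CDKN1A, an inhibitor of cyclin-dependent kinases, followed the order of DDIT4, at 6.64 FPKM in control 1, 75.7 in wild type 1, 11.0 in R213A 1 and 19.1 in R213A 3.

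The relatives of TXNIP and the glucose-sensing factors (8 of 9 in the fit) had medians of 0.14 and 0.00. MLXIP, the glucose-sensing factor itself, read 9.95, 6.81 and 6.38 FPKM in the controls, 4.55, 5.95 and 5.66 with wild-type CPXM2, and 8.50, 6.68 and 7.13 with R213A. Wild type 1 thus had the lowest MLXIP and the highest TXNIP of the 4-library table. ARRDC4, as TXNIP, was highest in wild type 1 and lowest in R213A 1 of that table, at 0.445, 0.711, 0.290 and 0.387 FPKM in control 1, wild type 1, R213A 1 and R213A 3. R213A 3 lay below control 1 for ARRDC4 and above it for TXNIP.

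**Figure D4:**
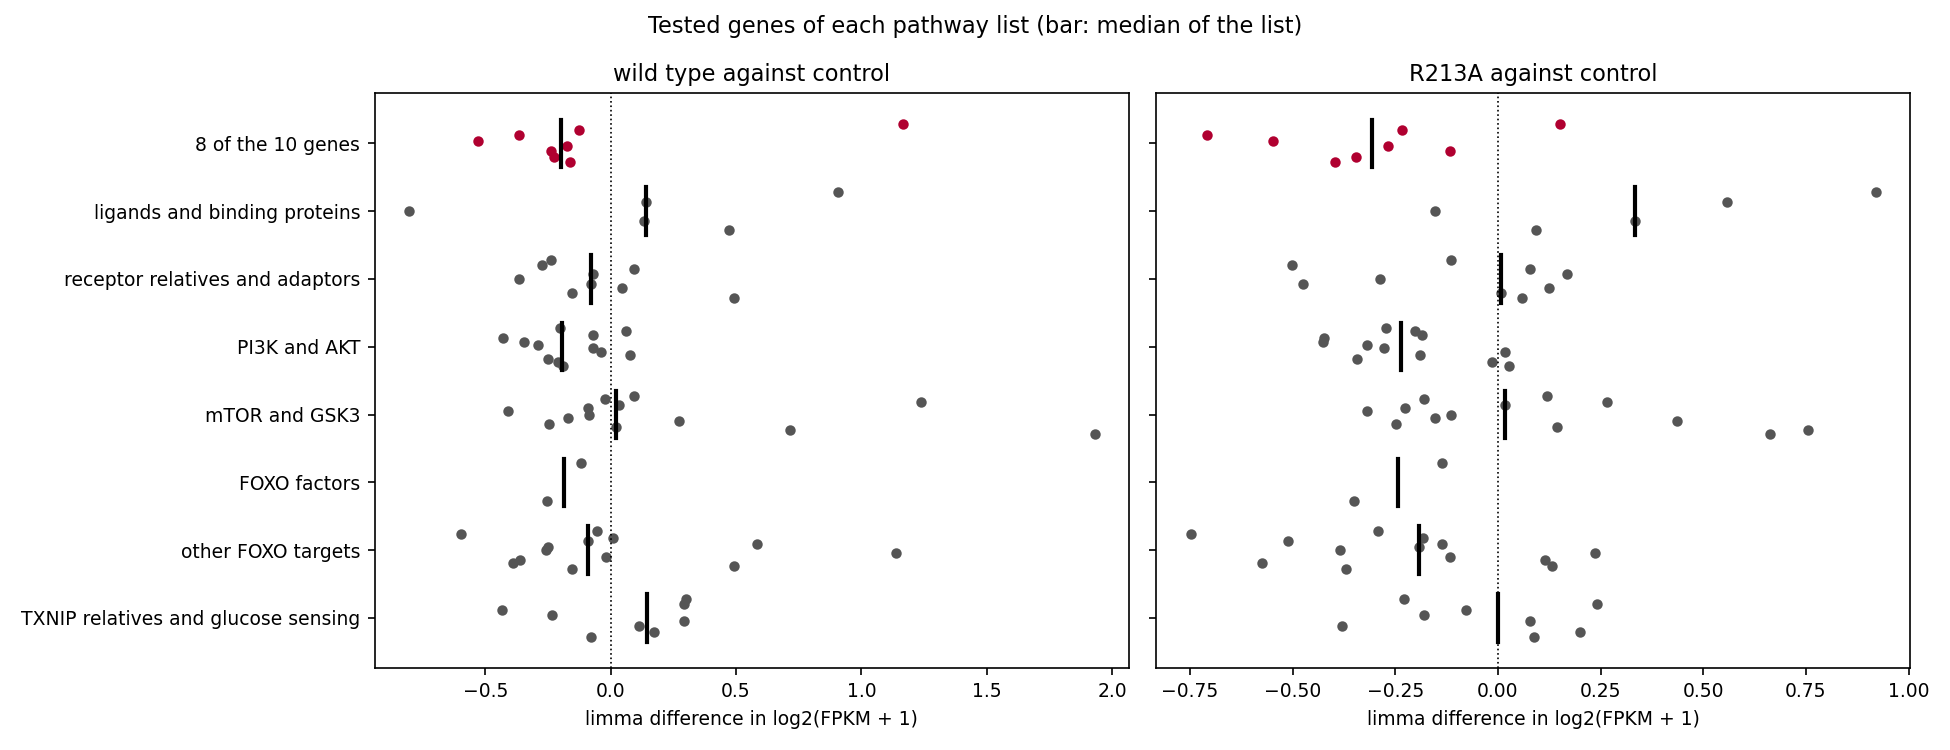
Difference in log2(FPKM + 1) from limma for each gene that entered the fit, by list, for wild type and R213A against control; points are genes, bars are list medians, and the dotted line marks 0. The median of the 8 members in the fit lies below 0 in both comparisons, as do those of the PI3K and AKT, FOXO factor and other FOXO target lists, and no gene passed the adjusted threshold.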

How the data were processed

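RNA was extracted with TRIzol and libraries were made with the TruSeq stranded mRNA kit, per the labels' protocols. The authors deposited FPKM values per gene in 2 tables on build hg38, per the submitters' processing notes, which also name bcl2fastq; aligner, counter, strand setting and annotation release: not given in the sources used here. FPKM times gene length gave whole reads for 100% of values within 0.01 read in each library. Levels were compared as log2(FPKM + 1) with limma 3.58.1 in R 4.3.3 (mean-variance trend, group and deposited table as terms, all 9 libraries, 5 residual degrees of freedom) for 11193 genes averaging 1 FPKM or more over the libraries, with Benjamini-Hochberg adjustment at 0.05. The script was tested on simulated data. Promoters are from RefSeq, build GRCh38.p14. Intervals and zero limits cover counting error only. The 10 genes, lists and tests were chosen with earlier results of these data known. Named beside them were, per list and comparison, up to 3 genes of smallest unadjusted p (a selection of which is printed), and the 3 genes most like IRS2 and TXNIP; INS, IGF1, IGF2, FOXO1 and ARRDC3 were named after their values were seen. The median tested gene differed by less than 0.1 on the log2 scale between groups.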

Additional observations from a re-analysis of the deposited data

How the results depend on the processing

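The count of 0 genes past the adjusted threshold held in the 3 comparisons under pseudocounts of 0.1 and 0.5, a filter at 5 FPKM, quantile and median-of-ratios scaling, no table term, limma-voom, and a correction for gene length that was added after seeing the data. It ranged from 0 to 0 when each library was left out, although genes at an unadjusted p under 0.05 ranged from 73 (without wild type 1) to 1378 (without control 3) for wild type against control, from 99 (without R213A 1) to 1123 (without R213A 2) for R213A against control, and from 39 (without wild type 1) to 774 (without R213A 2) for wild type against R213A. With no filter 1 gene passed in each comparison with control, the low MAT2AP1. Inside the 4-library table, 775 genes passed for wild type and 184 for R213A, each against control, and 327 for wild type against R213A, where the spread comes from R213A 1 and R213A 3 alone and lone libraries are assumed to vary like them. Inside the 5-library table without control 2, 14 and 16 passed in the comparisons with control. There the spread comes from wild type 2 and wild type 3 alone. The lone libraries, control 3 and R213A 2, are assumed to vary like them, so these counts cannot show a difference between matrices. Their cause was not tested. With the replicate block beside the table term the counts were 0, with 285, 632 and 125 genes at an unadjusted p under 0.05. The labels do not say what a number shares. Deviations from the group means correlated at 0.34 to 0.84 in 7 of 9 same-numbered pairs. They correlated at -0.65 and -0.70 for R213A 3 with control 3 and wild type 3, which lie in the other table. The deviations were not centred by table, so they carry the step between tables and cannot show whether a number marks a pairing. For want of a label that says so, the block was left out of the main fit. Leaving out 1 library moved the difference of TXNIP between 0.50 (without control 2) and 1.72 (without control 3) for wild type, between -0.60 and 0.62 for R213A against control (without R213A 2 and without R213A 1), and between 0.47 (without wild type 1) and 1.76 (without R213A 2) for wild type against R213A. KLHL24 stood at -0.11 (wild type) and -0.49 (R213A) against control without control 2. For IRS1 against control it ran from -0.41 to 0.10 (wild type) and from -0.51 to 0.09 (R213A), above 0 only without control 1. Of 216 leave-one-out values of the members, 10 changed sign. The 2 other count models planned on the recovered reads were not run, and limma-voom was the sole fit on those reads. Depth limits PIK3IP1, with 24 reads at most.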
